A study of Mus musculus with 138 samples.

Results

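Trefoil peptides and antimicrobial proteins secreted by airway and gut epithelium were measured in the lungs of 138 mice after allergen challenge. The 7 genes are the trefoil factors TFF1 and TFF2, the intelectins ITLN1 and ITLNB, the C-type lectin REG3G, the ribonuclease ANG4 and the resistin-like protein RETNLB. They were chosen by name, with earlier results of these same arrays known, because their levels differ between mice and because of their relation to the goblet cell gene CLCA3. Levels, spread and the relation to CLCA3 are therefore given as a description, and no test of them is read. Each gene had 1 probe, so 7 of the 45281 probes on the array are described. No probe carries the name ITLN1. The intelectin probe named ITLN2 stands for it, because RefSeq lists Itln2 as a synonym of Itln1, and ITLNB keeps the name of the file. This match may follow older naming, so whether the ITLN2 values and the Itln1 sequence below belong to the same gene is not certain. CLCA3 is the former name of mouse Clca1 and had 2 probes.

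Every animal came from a different incompletely inbred line of the Collaborative Cross, which descends from the founders 129S1/SvImJ, A/J, C57BL/6J, CAST/Ei, NOD/LtJ, NZO/H1LtJ, PWK/Ph and WSB/Ei. All mice were sensitized intraperitoneally with 10 ug of Der p 1, a house dust mite allergen, challenged with 50 ug on day 15 and killed on day 18, which is 72 hours after the challenge. Age and sex are not in the labels used here. There were no unchallenged mice and no second animal of a line, so no value shows an effect of the allergen, and differences between lines cannot be told apart from differences between single animals. In RNA from lung tissue, fewer cells of a type and less RNA per cell cannot be told apart.

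Trefoil factors are small, disulphide-rich peptides that goblet cells secrete together with mucins and that help to protect and repair mucous surfaces. Intelectins are secreted lectins that bind sugars found on microbes, and goblet cells of the gut and of the allergic airway make them. Reg3g is a lectin that kills Gram-positive bacteria, Ang4 is a ribonuclease of the angiogenin family made by Paneth and goblet cells of the mouse gut, and Retnlb (RELM-beta) is a goblet cell protein of the gut that is induced by type 2 cytokines. Clca1 is secreted by goblet cells and is a common marker of mucous change in the airway. The number of intelectin genes differs between inbred mouse strains, with fewer in C57BL/6J than in 129 strains.

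Lung markers were high on all arrays, with the surfactant gene SFTPC at 11.6 to 12.7 log2 and the club cell gene SCGB1A1 at 12.9 to 13.4. Of the 45281 probes, 19075 to 21472 were detected per array (detection p under 0.05), and 24450 were detected in at least 14 mice and were used for fits. Levels are the authors' normalized log2 intensities, on a scale from 4.68 to 13.4. Probes that were not detected had a median of 5.24 to 5.27 on each array. A mouse is called on for a probe if the probe was detected and lay at least 1 log2 above that median, marginal if it was only detected, and off otherwise. All 7 probes were among the 24450. Each was brighter in some mice than in others, and 6 of 7 had an SD over 1 log2, as did 2.19% of the 24450 probes. That share is a description only, since spread was a reason for choosing the genes.

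Upstream sequence from RefSeq is shown for 3 of the 7 genes, the lectins Itln1 and Reg3g and the ribonuclease Ang4, because these were off in 25 to 78 mice and the letters before their starts can be set side by side. Tff1, Tff2 and Retnlb had no entry, and Itlnb was not looked up. The 250 bases before the start of each transcript are given 5′ to 3′ on the gene's own strand, from build GRCm38.p6, which is a C57BL/6J sequence. They lie at chr1:171535295-171535544 (minus strand) for Itln1, chr6:78468875-78469124 (minus strand) for Reg3g and chr14:51773591-51773840 (minus strand) for Ang4. Capitals mark matches, on either strand, to TATAAA, TTCNNNGAA, TTCNNNNGAA or TGTTTAC, where N is any base.
Itln1: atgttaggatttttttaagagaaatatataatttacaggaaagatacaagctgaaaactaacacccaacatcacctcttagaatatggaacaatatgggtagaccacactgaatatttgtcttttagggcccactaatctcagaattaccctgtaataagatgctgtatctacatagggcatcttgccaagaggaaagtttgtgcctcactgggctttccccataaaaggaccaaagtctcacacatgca
Reg3g: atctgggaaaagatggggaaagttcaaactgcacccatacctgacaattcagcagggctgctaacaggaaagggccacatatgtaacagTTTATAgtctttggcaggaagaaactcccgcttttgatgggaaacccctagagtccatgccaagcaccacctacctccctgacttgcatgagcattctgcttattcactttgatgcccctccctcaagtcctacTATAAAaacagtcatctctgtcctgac
Ang4: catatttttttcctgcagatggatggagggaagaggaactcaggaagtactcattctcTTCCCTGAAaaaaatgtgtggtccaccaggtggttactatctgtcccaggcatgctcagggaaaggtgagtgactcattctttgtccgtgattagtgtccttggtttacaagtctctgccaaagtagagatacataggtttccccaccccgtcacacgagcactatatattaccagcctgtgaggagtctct
Reg3g held TATAAA, the core of the TATA box, from position -27 to -22 relative to the start, and its reverse complement (TTTATA) farther upstream. Such a match was present in 12.4% of 32851 upstream windows of this length. Ang4 held 1 match to TTCNNNGAA, the spacing bound by most STAT factors, from position -192 to -184, as did 7.02% of the windows. TTCNNNNGAA, the wider spacing bound by STAT6, and TGTTTAC, a forkhead motif, were in 5.85% and 3.17% of the windows and had no match in these 3. The Itln1 window had no match to any of the motifs. The motifs do not overlap in the windows shown.

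TFF2 was the most widely detected of the 7 genes. It was on in 97.1% of the 138 mice, marginal in 3 and off in 1, with a lowest level of 5.43, a median of 9.86 and a highest of 12.3 log2. Its mean was 9.60 ± 1.71 (SD, n = 138), and the 95th percentile lay 34.5-fold above the 5th. The only mouse in which it was off was that of line OR167, and the highest was that of OR3327. Few lungs were therefore without a TFF2 signal, and the mice differed mainly in its height.

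TFF1 had a lowest level of 5.19, a median of 6.62 and a highest of 11.4 log2, and was on in 78 mice, marginal in 22 and off in 38. Its mean was 6.97 ± 1.48 (SD, n = 138), with the highest value in OR291. TFF1 and TFF2 lie side by side on mouse chromosome 17, with Tff3 on the other side of Tff2. All 78 mice with TFF1 on also had TFF2 on, which is 58.2% of the mice with TFF2 on, and 34 mice had TFF2 on and TFF1 off. Across mice the levels of both followed each other (r = 0.629, rho = 0.674, n = 138, as a description). The TFF3 probe was detected in 0 mice. With TFF2 on in nearly every mouse this overlap is near its share of all mice, and ITLN2, REG3G and RETNLB were likewise on only where TFF2 was.

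ITLNB had the widest spread of the 7 genes and ranked 14 among 24450 probes by SD. Its lowest level was 5.10, its median 8.20 and its highest 12.6 log2 (mean 8.31 ± 2.22, SD, n = 138). The 5th percentile was 5.37 and the 95th 12.12 log2. ITLNB was on in 76.8% of mice, marginal in 12 and off in 20, with the lowest value in OR1536 and the highest in OR5087. ITLN2 was dimmer, from 5.13 through a median of 5.88 to 8.80 log2 (mean 6.18 ± 0.85, SD, n = 138), and on in 53 mice, marginal in 31 and off in 54. All 53 mice with ITLN2 on also had ITLNB on, which is 50.0% of the mice with ITLNB on.

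The intelectin probes did not rise together along 1 line, as the plot of probe pairs shows. In the 84 mice in which ITLNB lay at least 2 log2 above undetected probes, the signal of ITLN2 was set against that of ITLNB after the array's undetected median intensity had been taken off. The ratio fell into 2 ranges with none of the 84 mice between them. Of the 54 dimmer mice left out, 10 had a ratio between the ranges, 7 of them with ITLNB on. In 39 mice the ITLN2 signal was 17.2% to 42.5% of the ITLNB signal (median 27.3%). In the other 45 mice it was at most 6.32% (median 1.63%). A probe's signal depends on its sequence as well as on the transcript, so the percentages are not transcript ratios. The lines descend from several founders, so the sequence under a probe and the intelectin genes present may differ between mice. Their part in the difference between the ranges was not tested. ITLNB reached 9.95 log2 in the 39 mice with the higher ratio (median 8.52, lowest 7.25), and 12.6 log2 in the 45 mice with the lower ratio (median 11.1, lowest 7.36). ITLN2 had a median of 7.03 log2 (6.15 to 8.80) in the 39 mice and of 5.94 (5.25 to 7.40) in the 45. The mice were split by the ratio of these probes, so opposite shifts are partly set by the split. Within each range the probes rose together, with r = 0.923 over the 39 mice and 0.694 over the 45. These ranges were seen in the data and carry no test. Both occurred among low and high title numbers, with 22 and 17 mice in the higher range and 25 and 20 in the lower. The intelectin genes are close copies, the sequences of the probes were not used here, and how far either probe reads the other gene's transcript was not tested.

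REG3G ranged from 4.90 through a median of 7.05 to 11 log2 (mean 7.27 ± 1.55, SD, n = 138). It was on in 90 mice, marginal in 23 and off in 25, lowest in OR167 and highest in OR867. Its largest empty step was 0.3 log2. Of the relatives of REG3G on the array, REG1 was detected in 79 mice at a mean of 5.96 log2, and REG2, REG3A, REG3D and REG4 were detected in 0 mice.

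RETNLB ranged from 5.14 through a median of 6.64 to 10.0 log2 (mean 6.84 ± 1.20, SD, n = 138). It was on in 90 mice, marginal in 18 and off in 30, and was highest in OR5087, the mouse that was also highest for ITLNB. Its neighbours on chromosome 16, RETNLA and RETNLG, were detected in every mouse.

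ANG4 was the only one of the 7 genes with 2 separated levels by a mixture of normal distributions. It was on in 54 mice, marginal in 6 and off in 78, from 4.98 through a median of 5.52 to 11.1 log2. The 57 mice of the high level ran from 6.01 to 11.1 (median 9.02), and the 81 of the low level from 4.98 to 5.84 (median 5.30). The empty stretch lay within the high level, with no mouse between 6.57 and 7.87, and 5 mice lay between 6 and 7. The on count hardly moved with the definition, since 52 mice were at least 2 log2 above undetected probes, where ITLN2 dropped to 19 mice, RETNLB to 44 and TFF1 to 50. ANG4 was thus closest to an on and off pattern, while the others were graded. Whether the sequence under a probe differs between lines was not checked, so off need not mean that the transcript was absent.

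**Figure D1:**
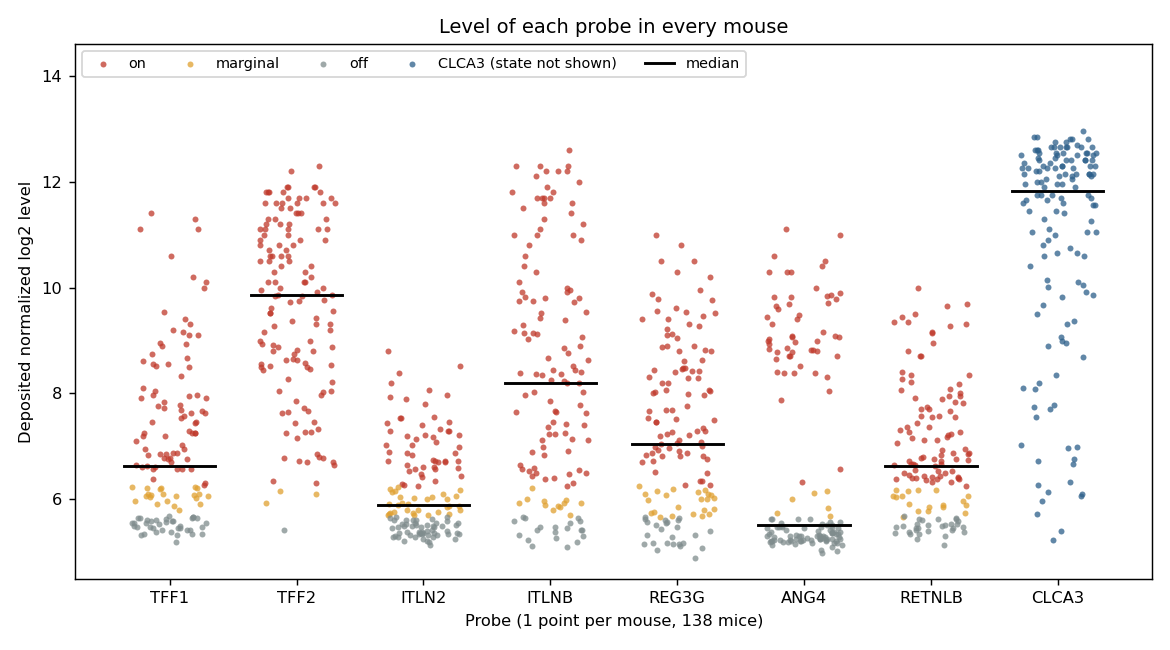
Each point is 1 of 138 mice. The vertical axis gives the authors' normalized log2 level of the 7 probes and of CLCA3 (mean of 2 probes), colours give on, marginal and off mice, and bars are medians. ANG4 has no mouse between 6.57 and 7.87, and the largest empty step of the other 6 genes is 0.5 log2 or less.

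CLCA3, the gene the others are set against, ranged from 5.24 in OR167 to 12.95 in OR900, with a median of 11.82 (mean of its 2 probes, which correlated at 0.998). Its distribution was skewed to the top: 64 mice lay at 12 or above and 19 under 8. The 64 upper mice thus lay within 1 log2 of each other. In a limma fit of all 24448 other probes on the CLCA3 level, 6 of the 7 genes had positive slopes past the threshold (adjusted p under 0.05), as did 3.91% of all probes. The relation to CLCA3 was part of the rule for choosing the genes, so nothing is read from that count, and slopes are given as sizes only, in log2 per log2 of CLCA3 with their SE. TFF2 (0.59 ± 0.05) and ITLNB (0.53 ± 0.08) were the steepest, and their order turned in mice with low title numbers (0.49 and 0.50) and with the cardiac score as a covariate (0.48 and 0.52). Then came TFF1 (0.44 ± 0.05), REG3G (0.32 ± 0.06), RETNLB (0.32 ± 0.04) and ITLN2 (0.19 ± 0.03). ANG4 came last (0.12 ± 0.08), with a slope less than 2 SE from 0.

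**Figure D2:**
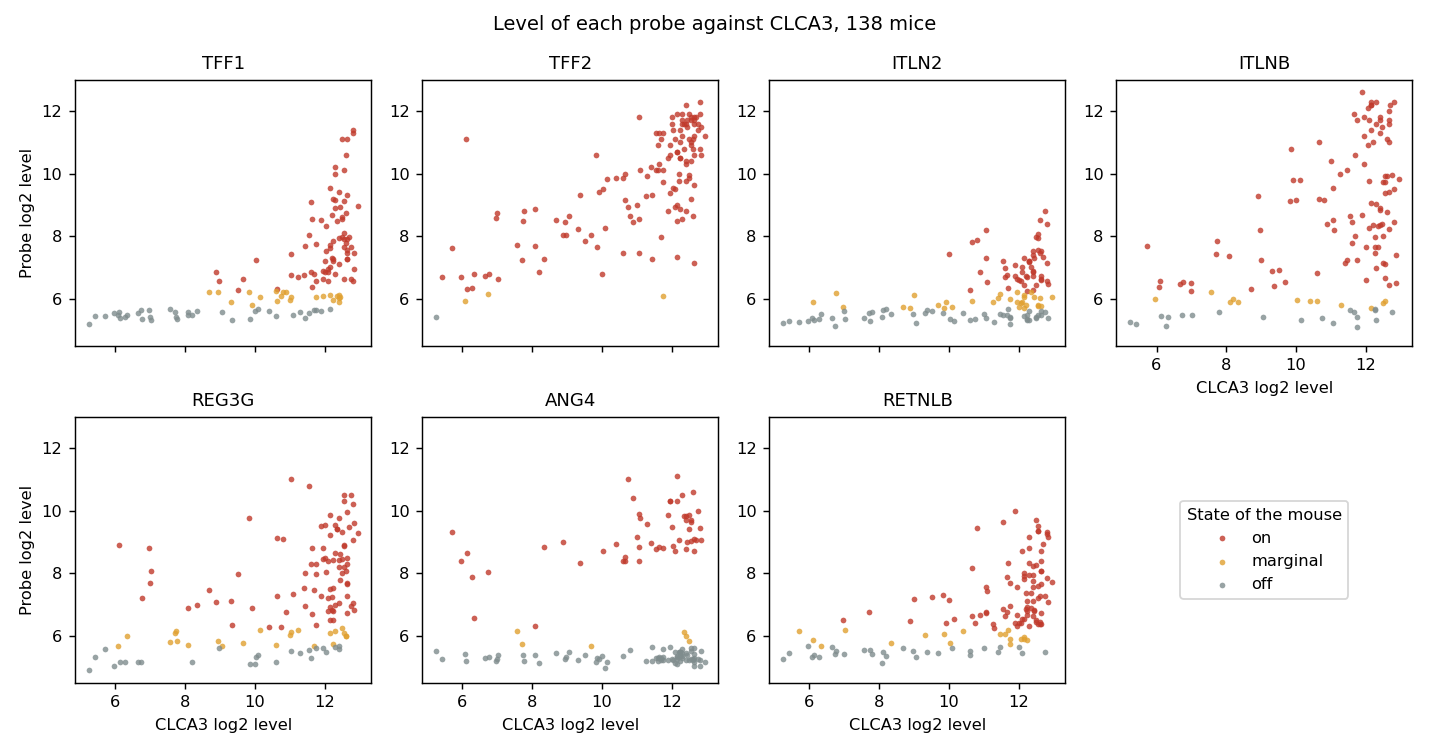
The CLCA3 log2 level is on the horizontal axis and the log2 level of each probe on the vertical axis, with 1 point per mouse (138 mice). TFF2 climbs with CLCA3 and varies widely where CLCA3 is high. TFF1 and RETNLB are on in mice with CLCA3 at or above 8.90 and 6.98, and ANG4 is on and off at all levels of CLCA3.

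The genes differed in the shape of this relation. TFF2 rose with CLCA3 over the 138 mice (r = 0.724, rho = 0.703). Its r was 0.703 without the 2 mice farthest from the CLCA3 median, and 0.814 and 0.602 within high and low title numbers. At high CLCA3 levels TFF2 still varied, with 7.15 in OR3513 (CLCA3 12.65) and 12.3 in OR3327 (CLCA3 12.8). TFF1 was on only at CLCA3 levels of 8.90 or more, a bound that lies below the first quartile of CLCA3 (9.94). The 78 mice with TFF1 on had CLCA3 levels from 8.90 to 12.95 (median 12.28). In the 38 mice with TFF1 off, CLCA3 ran from 5.24 to 12.15 (median 7.93). Its rank correlation was the higher of its coefficients (rho = 0.756, r = 0.614, 0.609 without 2 mice, 0.637 and 0.589 within title ranges). RETNLB was on in mice with CLCA3 from 6.98 to 12.95 (median 12.25) and off from 5.24 to 12.75 (median 8.14), with r = 0.564 and rho = 0.639 (0.551 without 2 mice, 0.603 and 0.525 within title ranges). In all 19 mice with CLCA3 under 8, TFF1 was off.

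REG3G was on at CLCA3 levels from 6.10 to 12.95, and r was 0.436 and rho 0.485 (0.409 without 2 mice, 0.527 and 0.317 within title ranges). ITLN2 was on only at CLCA3 levels of 10.00 or more, yet 13 mice above the CLCA3 median had it off (r = 0.468, rho = 0.499, 0.454 without 2 mice, 0.428 and 0.504 within title ranges). ITLNB had r = 0.496 and rho = 0.452 over all mice (0.473 without 2 mice, 0.535 and 0.443 within title ranges). Among the 84 mice placed in the intelectin ranges, over the 45 mice with the lower ratio its level followed CLCA3 (r = 0.775), and over the 39 mice with the higher ratio r was 0.083. CLCA3 ran from 5.72 to 12.95 in those 45 mice, and over a narrower range, from 10.0 to 12.85, in the 39. The difference between these coefficients was not tested. For ANG4, r with CLCA3 was 0.435 over the 57 mice of its high level and 0.010 over the 81 of its low level. Of the 78 mice with ANG4 off, 39 had CLCA3 above its median. All these coefficients are over mice, describe these arrays and have no p.

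Single mice broke the common order. The mouse of OR167 was off for all 7 genes and had the lowest CLCA3 level. The lung of OR1536 had a CLCA3 level of 11.75, but 0 of the 7 genes on, with TFF2 at 6.10, ITLNB at 5.10 and TFF1 at 5.65. OR489 was the reverse, with CLCA3 at 6.11 and TFF2 at 11.1 and REG3G at 8.89. OR5528 had CLCA3 at 12.75 with both ITLNB and RETNLB off. At the other end, 14 mice had all 7 genes on, at CLCA3 levels from 10.65 to 12.80, and 31 mice had 6 on.

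What the genes share beyond CLCA3 was asked with a score of type 2 immunity, the arm of immunity active in allergy. The score is the mean z value of 14 kept genes of cytokines, chemokines, receptors and enzymes such as Il13, Ccl11 and Arg1, none of them a member, and its r with CLCA3 was 0.495. In a limma fit of 24431 probes on this score, 6 of the 7 genes rose past the threshold (Benjamini-Hochberg adjusted p under 0.05), against 10.6% of all probes. The list of type 2 genes and the direction were known from earlier results of these arrays, so the count is no independent support. RETNLB had a slope of 0.82 ± 0.07 log2 for each SD of this score (± SE, limma adjusted p = 5.8e-18). ITLNB (0.89 ± 0.17, 2.22e-05), TFF1 (0.57 ± 0.12, 4.32e-05), TFF2 (0.56 ± 0.14, 0.000942), REG3G (0.42 ± 0.13, 0.00802) and ITLN2 (0.35 ± 0.07, 1.59e-05) rose as well. ANG4 had 0.19 ± 0.17 and did not pass (limma adjusted p = 0.464). Among mice with high title numbers alone TFF2 did not pass (limma adjusted p = 0.109), and among low title numbers alone ITLNB (0.0706) and REG3G (0.461) did not.

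CLCA3 and the type 2 score were then put in 1 fit. Type 2 slopes were positive and past the threshold for 2 of 7 genes, against 9.87% of all probes. CLCA3 slopes were so for 6 of 7 and for 2.23% of all probes, from which nothing is read, since the genes were chosen for that relation; their CLCA3 slopes are given as sizes. TFF2 had a CLCA3 slope of 0.61 ± 0.06 and a type 2 slope of -0.07 ± 0.12 (limma adjusted p = 0.725). TFF1 had a CLCA3 slope of 0.40 ± 0.05 and a type 2 slope of 0.16 ± 0.11 (limma adjusted p = 0.351). RETNLB kept a type 2 slope of 0.65 ± 0.08 (limma adjusted p = 4.81e-11) beside a CLCA3 slope of 0.17 ± 0.04. ITLN2 had a type 2 slope of 0.19 ± 0.07 (limma adjusted p = 0.0413), which did not pass in the unfiltered set of probes (0.0696) or within either title range (0.0659 in high, 0.515 in low). For ITLNB the type 2 slope was 0.45 ± 0.19 (limma adjusted p = 0.0725), for REG3G 0.12 ± 0.14 (0.622) and for ANG4 0.08 ± 0.19 (0.84). The difference of slopes between genes was not tested. The genes most like RETNLB over the 138 mice were the chitinase-like gene Chil4 (r = 0.761) and the arginase Arg1 (0.742). Both genes are in the type 2 score, Arg1 by the same probe and Chil4 by another probe. Next were SPRR2A (0.739), Rrbp1 (0.730) and Fxyd4 (0.686).

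**Figure D3:**
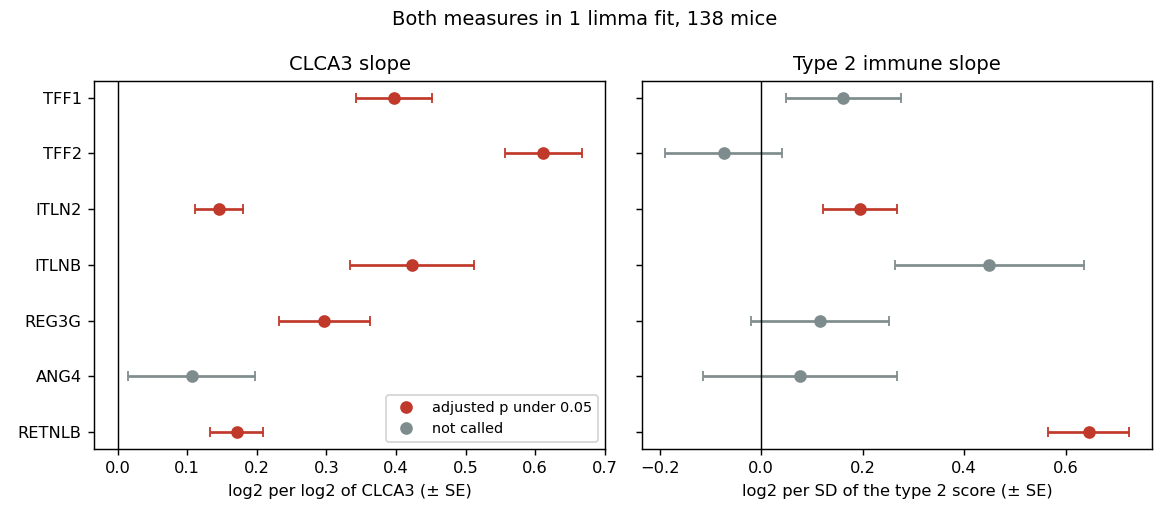
Slopes ± SE of each probe in 1 limma fit over 138 mice, on the CLCA3 level (left, log2 per log2) and on the type 2 immune score (right, log2 per SD). TFF2 has the steepest CLCA3 slope (0.61) with a type 2 slope of -0.07, and RETNLB has the steepest type 2 slope (0.65).

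Genes of mucus production gave the surroundings of the trefoil factors. Of 12 kept genes of this list, 10 rose with CLCA3 past the threshold, against 3.91% of all probes. The list was chosen with earlier results of these arrays known, so the count is no independent support. Among the 10 were the gel-forming mucins Muc5ac (0.67 ± 0.04) and Muc5b (0.48 ± 0.03). The transcription factors Foxa3 (0.35 ± 0.02) and Spdef (0.19 ± 0.02), which drive goblet cell differentiation, were also among them. The list median slope was 0.342, against -0.0008 for all probes. Foxa2 and Bace2 did not pass. The genes most like TFF1 over the 138 mice, by Pearson r, were the calpain Capn9 (0.714), Foxa3 (0.709), Muc5ac (0.684), Spdef (0.630) and TFF2 (0.629). Those most like TFF2 were Muc5b (0.784), Muc5ac (0.740), Foxa3 (0.727), CLCA3 (0.725) and Chil4 (0.678). The genes most like ITLN2 were Chil4 (0.589), RETNLB (0.543), ITLNB (0.535), SPRR2A (0.497) and the mucus protein Fcgbp (0.487). For ITLNB they were ITLN2 (0.535), the DNA sensor Aim2 (0.505), Chil4 (0.501), CLCA3 (0.500) and Fcgbp (0.491). Aim2 lies on chromosome 1, as Itln1 does, with 42 protein-coding genes between them in the reference. The 138 points share array type, processing and time after challenge.

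REG3G followed TFF2 (r = 0.646, rho = 0.669, n = 138) about as closely as TFF1 did. The genes most like it were the microbe-binding glycoprotein Gp2 (r = 0.725), the LIM domain gene Fhl2 (0.701), Tmc5 (0.679), lactoferrin Ltf (0.669) and Muc5b (0.653). Markers of heart muscle, which surrounds the large pulmonary veins in mice, moved with it: the mean level of 8 measured cardiac genes ranged from 6.15 to 10.70 log2 over mice and correlated with REG3G at 0.617, with TFF2 at 0.572 and with ANG4 at 0.004. In a limma fit on the cardiac score, which was added after the values had been seen, 3 of the 7 genes rose past the threshold, against 1.33% of all 24440 probes: TFF2 (0.96 ± 0.12 log2 per SD, limma adjusted p = 8.09e-11), REG3G (0.95 ± 0.10, 1.34e-13) and TFF1 (0.48 ± 0.12, 0.00865). Among low title numbers alone TFF1 had 0.30 ± 0.17 and did not pass (limma adjusted p = 0.595). With CLCA3 as a covariate the cardiac slope of REG3G was 0.82 ± 0.11 (limma adjusted p = 1.31e-08), that of TFF2 0.50 ± 0.11 (0.000826) and that of TFF1 0.08 ± 0.11 (0.935). The CLCA3 slope of REG3G was 0.144 ± 0.055 with the cardiac score as a covariate, in place of 0.32, and that of TFF2 was 0.48 ± 0.05, in place of 0.59. All 8 kept cardiac genes rose with CLCA3 as well, against 3.91% of all probes, with a list median of 0.274. The part of heart tissue in these relations was not tested.

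Markers of other tissues that make these proteins were mostly near background. Of 9 measured intestinal markers, 4 passed the filter: Lgals4 (mean 6.84 log2), Guca2a (6.28), Cdx1 (5.82) and Muc13 (5.82). The transcription factor Cdx2 and the fatty acid binding proteins Fabp1 and Fabp2 were detected in 0 mice. Of 8 stomach markers 3 passed, Gkn3 (mean 6.67 log2), Pgc (6.30) and GIF (5.72), and the proton pump genes Atp4a and Atp4b and the mucin Muc6 were detected in 0 mice. The summed level ranged from 48.2 to 54.5 log2 for the 9 intestinal and from 42.7 to 48.6 for the 8 stomach genes over mice. The intestinal mean had r = 0.384 with TFF1, 0.378 with RETNLB and 0.348 with CLCA3, and its part in those levels was not tested. One intestinal gene, the guanylate cyclase ligand Guca2a, rose with CLCA3 (0.17 ± 0.04 log2 per log2, limma adjusted p = 0.000531). Pancreas markers stood apart in 3 mice. The mean level of 8 measured genes was 8.72 log2 in OR291, 7.63 in OR3489 and 6.66 in OR5308, against a median of 5.65 over all mice and 5.98 in the next mouse. OR291 was also the mouse with the highest TFF1 level, 11.4, and had REG3G at 10.2. OR5308 had TFF1 at 9.99 and REG3G at 8.64, while OR3489 had TFF1 at 6.57 and REG3G at 6.34. Over all mice the pancreas mean had r = 0.28 with TFF1 and 0.138 with REG3G, and its part in those levels was not tested. Without these 3 mice the highest TFF1 level was 11.3, in OR3327, and r with CLCA3 was 0.619 for TFF1 and 0.431 for REG3G. Leaving them out, a step chosen after the values were seen, ended no call among the 7 genes in the fits reported here.

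Other inflammatory scores were set beside the 7 genes. The score of IL-17 target and acute phase genes was not separate from the type 2 score (r = 0.445), and 11 of 14 type 2 genes rose with it. On it, 2 of the 7 rose past the threshold, against 8.71% of all probes: RETNLB by 0.45 ± 0.09 log2 per SD (limma adjusted p = 0.000165) and REG3G, known in the gut as a target of IL-22, by 0.43 ± 0.13 (0.00869). Neither passed among low title numbers alone (0.291 and 0.573). ITLN2 had 0.18 ± 0.07 (limma adjusted p = 0.0544) and passed under other settings (0.0445 with the title range as a covariate). The IL22 probe was detected in 0 mice. On a score of 6 neutrophil genes, 0 of the 7 passed by limma, against 0.945% of all probes. Unadjusted p was above 0.05 for all 7, with ANG4 nearest (slope -0.30 ± 0.16, unadjusted limma p = 0.0672).

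ANG4 stood apart in its companions. It was detected in fewer mice than the 69 set for naming similar genes, so its list was made after its values were seen and is a description. The probes most like it were of the eosinophil-associated ribonucleases, a family related to the angiogenins, with EAR3 at r = 0.885 and 0.699 for 2 probes and EAR12 at 0.718. EAR3 ran from 6.59 through a median of 9.30 to 11.2 log2 in the 57 mice with ANG4 high, and from 5.64 through 6.63 to 8.68 in the 81 mice with ANG4 low. The groups overlap between 6.59 and 8.68. Within the 57 and the 81 mice, r of ANG4 with this EAR3 probe was 0.669 and 0.538. The most negative values were also of this family, an EAR2 probe at -0.582 and an EAR10 probe at -0.544, while other probes named EAR2 were at 0.392 and 0.278 and the other EAR10 probe at 0.463. Of 12 kept EAR probes, EAR1 (-0.006) and EAR11 (-0.043) lay near 0. In the reference, Ear6 is the second protein-coding gene after Ang4 on chromosome 14, yet r of the EAR6 probe with ANG4 was only 0.159. Ear2 and Ear10 lie on the same chromosome farther away. A relation between position and these coefficients was not tested. Ribonucleases of this family are near copies, so a probe may read several of them. Over the 57 mice with ANG4 high, its r with the other 6 genes ran from 0.081 (REG3G) to 0.369 (TFF1).

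**Figure D4:**
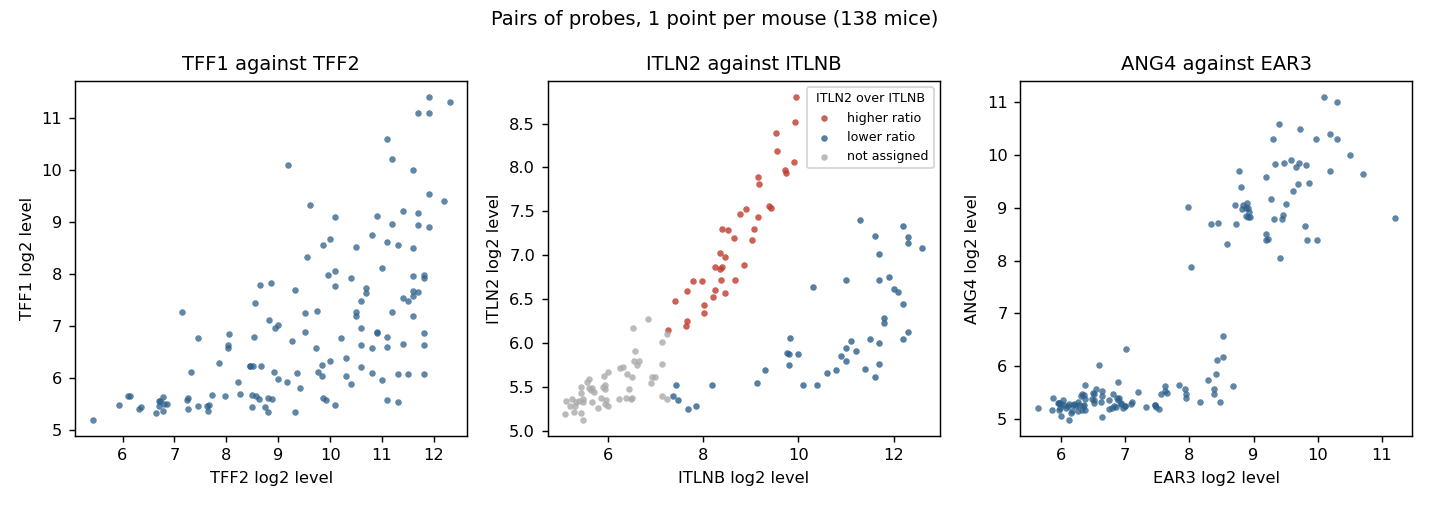
Levels of 3 pairs of probes in log2, 1 point per mouse (138 mice): TFF1 against TFF2, ITLN2 against ITLNB, and ANG4 against EAR3. TFF1 spreads widely where TFF2 is high, the intelectin mice lie on 2 separate arms (39 mice with the higher ITLN2 to ITLNB ratio, 45 with the lower, and grey for mice with ITLNB under 2 log2 above undetected probes), and ANG4 is high mainly where EAR3 is high.

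The number in each mouse's title falls into a high range with 65 mice and a low range, up to 87, with 73, and its meaning is not stated. By limma, 0 of 24450 probes differed between the ranges (0%), with 997 probes at an unadjusted p under 0.05. REG3G had 7.0 ± 1.59 log2 in the high and 7.51 ± 1.48 in the low range (SD, n = 65 and 73). The difference was -0.51 ± 0.26 (SE, limma adjusted p = 0.976, unadjusted limma p = 0.0515), the largest of the 7. TFF1 was on in 31 of the 65 and 47 of the 73 mice, TFF2 in 62 and 72, and ITLN2 in 22 and 31. ITLNB was on in 45 and 61, REG3G in 35 and 55, RETNLB in 40 and 50, and ANG4 in 28 and 26. These on counts were not tested.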

How the data were processed

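Lung RNA of 138 mice was hybridised to Illumina WG6v2 arrays, 1 array per mouse. The authors deposited a scanner table with an intensity per probe that was not normalized, and each probe's detection p-value stands beside it, per the file headers. The log2 values deposited by the authors came from GenomeStudio and R 2.9.2, per the submitters' processing notes, which name RMA, quantile normalization and a log2 step. No source used here gives a background correction. The log2 columns share a median of 5.57, and each matches its own scanner column best (r of at least 0.9959), so scale and direction are known and genes were not centred. They hold 3 significant digits, so values of 10 or more have 1 decimal.

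The log2 values were used as deposited. Quantile normalization puts the arrays on 1 scale, which can narrow differences at both ends. Kept probes had a detection p under 0.05 in at least 14 mice. Fits used limma 3.58.1 (lmFit, eBayes) in R 4.3.3, with Benjamini-Hochberg adjustment over all kept probes outside the score. In simulated data, the CLCA3 fit recovered 53% of planted slopes of 0.3 SD and 100% of 0.6 SD, with 9 false calls. The simulated noise was normal and independent between probes, so correlated probes and probes at background were not covered. A score is the mean z value of a list's kept genes, each by 1 probe, scaled to an SD of 1. For the separation into levels, 2 normal distributions had to improve the BIC by over 10, with means more than 3 pooled SDs and 1 log2 apart. Python 3.11.15 was used for the rest. The number of arrays limits the precision.

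The genes, lists and tests were chosen with earlier results of these data known. Named are the 7 genes, CLCA3, list members and, for probes detected in at least 69 mice, the 5 named genes with the highest r, passing over clone names. Names were updated through RefSeq GRCm38.p6. The alternatives were neqc on scanner intensities (offset 16), other filters, title ranges, a cardiac covariate and leaving out mice.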

Additional observations from a re-analysis of the deposited data

How the results depend on the processing

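All slopes of the 7 genes kept their sign where they were called. Counts of called probes were within 1.5 times of the values above under most settings. In mice with low title numbers alone they were 244 for CLCA3 (2107 in all mice), 1488 for the type 2 score (5512), 1927 and 2819 for CLCA3 and type 2 in 1 fit (1123 and 4940), 1274 for the IL-17 score (4422) and 0.487% of probes for the neutrophil score (1.06%). In high title numbers alone they were 273 for CLCA3 and 99 and 2511 for CLCA3 and type 2 in 1 fit. Fewer mice enter these fits, yet the CLCA3 count in the joint fit was higher in low title numbers (1927) than in all mice (1123). The cause of these changes was not tested. For CLCA3 the count was 1213 without the 2 mice farthest from its median and 886 with the cardiac score as a covariate; the cause was not tested. No paired analysis was possible because the labels give 1 group.

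With CLCA3 and type 2 in 1 fit, 6 of 55 CLCA3 slopes (REG3G and RETNLB in low titles, with ITLN2 and ITLNB besides in high titles) and 3 of 55 type 2 slopes, all of ITLN2, lost their call. For the type 2 score alone 3 of 62 did, for TFF2, ITLNB and REG3G. Mice counted as on moved over 1.5 times in 3 of 21 cases, for TFF1, ITLN2 and RETNLB at a step of 2 log2. Levels near 5 to 6 log2 lie at background, which limits what can be read of ITLN2 and TFF1 in dim mice.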
